A study of Rattus norvegicus with 12 samples.

Results

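Transcripts of 4 genes of the vacuolar proton pump and of prosaposin were followed in rats given lipopolysaccharide (LPS), the Gram-negative cell wall component sensed through Toll-like receptor 4. The 5 genes, Atp6v0c, Atp6v1g1, Atp6ap1, Atp6v0a1 and Psap, are 5 of the 3939 genes that the array names through a single symbol, and each is represented by 1 probe. They were selected on the very log2 ratios at 2 h and 6 h that are given here, so their own values are a description and carry no test. The groups were 3 rats taken 2 h after LPS and 3 taken 6 h after it, each set against the control pool of its own time. Every rat was hybridised on 2 arrays, labelled fluor (control pool in channel 1) and flip (channels exchanged), which gave 12 arrays in all. Both times number a rat 2, and these were treated as different animals because nothing in the labels joins them. The series title gives blood as the source. The sources used here do not give strain, sex, LPS dose or route, or what went into the control pools.

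The vacuolar ATPase is a rotary pump in the membranes of lysosomes, endosomes and secretory granules. Its peripheral V1 sector hydrolyses ATP and drives the membrane-embedded V0 sector, which carries protons inward and so acidifies the organelle. Atp6v0c encodes the proteolipid of the rotating ring, Atp6v0a1 the a1 form of the large subunit that holds the proton path beside the ring, Atp6v1g1 a subunit of the peripheral stalk, and Atp6ap1 an accessory protein needed for assembly of the pump. Psap encodes prosaposin, a precursor that is cut in the lysosome into the saposins, small proteins that present sphingolipids to the enzymes that degrade them. In blood, lysosomes are prominent in monocytes and granulocytes.

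Each value is a log2 ratio averaged over the fluor and flip array of a rat, with the rat as the replicate. A value above 0 is read as higher after LPS than in the control pool. This reading is likely, not settled: the dyes are not stated, and a rat's fluor array and its flip array correlated at only -0.23 to 0.25 over all probes, whereas arrays of 1 orientation correlated at 0.38 to 0.66. Of 8 measured textbook LPS-induced genes, 5 lay above 0 on every array (Irf1, Zfp36, Il1b, Lcn2, Il1r2). Sod2 lay above 0 on 10 of 12, Tnf on 8 and Nfkbia on 3. Il1b had the largest means of the 8, 3.9 at 2 h and 2.05 at 6 h, while Nfkbia stood at 0.01 and -0.11. The control pool is 1 sample per time, so the spread between control animals is in no error given here. Ratios hold no expression levels, so the labelled tissue could not be checked against marker levels.

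Psap had the lowest ratios of the 5. At 2 h the rat means were -0.54, -1.05 and -0.76 in rats 1, 2 and 3, a mean of -0.78 ± 0.26 (SD, n = 3), which is 58.2% of the control pool. At 6 h they were -1.07, -1.29 and -1.34 in rats 2, 4 and 6, a mean of -1.23 ± 0.14 (SD, n = 3), or 42.6% of the control pool. Every array lay below 0, between -1.14 and -0.37 at 2 h and between -1.54 and -1.03 at 6 h. In these bulk samples fewer cells that express a gene and less of its RNA per cell cannot be told apart.

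The rat means of Psap at the 2 times did not overlap, and 6 h minus 2 h was -0.45 (SE 0.13). Such a gap was common: the rat means of 21.7% of all 3939 genes did not overlap between the times. The nearest pair were rat 2 at 2 h (-1.05) and rat 2 at 6 h (-1.07), and without the former the difference was -0.58. Among all genes, 18 had a lower mean than Psap at 2 h and 3 at 6 h.

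Atp6v0c, the proteolipid of the V0 ring, stood on the other side of 0. Its rat means at 2 h were 0.41, 0.49 and 0.22, averaging 0.37 ± 0.14 (SD, n = 3; 1.29-fold). At 6 h they were 0.71, 0.40 and 0.43, averaging 0.51 ± 0.17 (SD, n = 3; 1.43-fold). All 12 arrays were above 0, and the rats of the 2 times overlapped. The highest value, 0.91, came from the fluor array of rat 2 at 6 h, while the other 5 arrays of that time lay between 0.37 and 0.50; without that rat the 6 h mean was 0.41.

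Atp6v0a1, which encodes the a1 form of the subunit facing that ring, was low on every array. Rat means were -0.38, -0.31 and -0.39 at 2 h (mean -0.36 ± 0.04, SD, n = 3) and -0.49, -0.27 and -0.42 at 6 h (mean -0.39 ± 0.12, SD, n = 3), which is 78.0% and 76.2% of the control pool. Arrays ran from -0.57 to -0.18 at 2 h and from -0.60 to -0.26 at 6 h. The times overlapped, with a difference of -0.03 (SE 0.06).

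Atp6ap1, the accessory protein, had small ratios that were also below 0 on all 12 arrays. Rat means were -0.20, -0.18 and -0.13 at 2 h (mean -0.17 ± 0.03, SD, n = 3) and -0.28, -0.12 and -0.19 at 6 h (mean -0.20 ± 0.08, SD, n = 3). The array nearest 0 was at -0.04 at 2 h and at -0.01 at 6 h, and the times overlapped. With the median of the 10 neighbouring probes subtracted, the 2 h mean of Atp6ap1 was -0.08.

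Atp6v1g1, of the V1 stalk, was above 0 on 10 of 12 arrays. Rat means were 0.11, 0.48 and 0.26 at 2 h (mean 0.28 ± 0.19, SD, n = 3) and 0.12, 0.37 and 0.07 at 6 h (mean 0.19 ± 0.16, SD, n = 3). Rat 2 was the highest at 2 h and rat 4 at 6 h, and the times overlapped; the means were 0.18 without the former and 0.09 without the latter. The fluor arrays gave 0.20, 0.58 and 0.48 at 2 h and 0.32, 0.66 and 0.25 at 6 h. The flip arrays gave 0.03, 0.38 and 0.03 at 2 h and -0.08, 0.07 and -0.12 at 6 h. The fluor array was thus the higher in 6 of 6 rats, and 2 of the 6 h flip arrays lay below 0. Fluor exceeded flip in all rats for 20.0% of all genes.

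**Figure D1:**
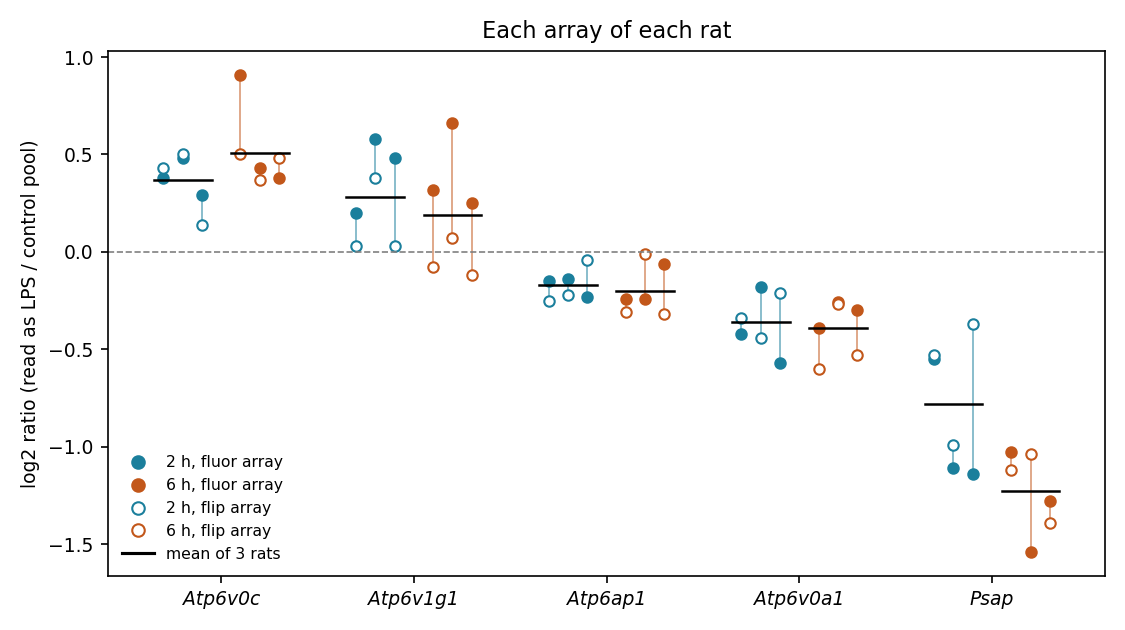
Log2 ratio on each array for the 5 genes (y axis, read as LPS over control pool), with 2 h in blue and 6 h in orange; filled points are fluor arrays, open points flip arrays, thin lines join the arrays of a rat and black bars are means of 3 rats. Psap, Atp6v0a1 and Atp6ap1 lie below 0 on all 12 arrays and Atp6v0c above 0 on all 12, whereas Atp6v1g1 is above 0 on 10.

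Of all 3939 genes, 3.88% were above 0 on all 12 arrays and 6.37% below 0 on all 12; of the 5, 1 and 3 were. Over all genes in limma at an adjusted p under 0.05, 9.34% were called higher and 9.82% lower at 2 h, and 8.30% and 10.7% at 6 h. Of the 5 genes, 2 were called higher and 3 lower at 2 h, and 1 higher and 3 lower at 6 h, the gene not called at 6 h being Atp6v1g1. Because these ratios chose the genes, nothing is read from those counts. For 6 h minus 2 h, 0.330% of all genes were called higher and 0.178% lower, and 0 of the 5 were called (limma; 569 of all genes had an unadjusted p under 0.05). The 13 higher and 7 lower genes became 5 and 9 with the arrays scaled alike and 3 and 5 after quantile normalization. The 2 h and 6 h rats share neither arrays nor control pools, but a difference between the pools would enter this contrast.

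The rest of the pump was read from lists of its subunits. In all, 12 of its genes were measured, 7 of V1, 4 of V0 and Atp6ap1. Among the 8 not described so far, Tcirg1, which encodes the a3 form of the same large V0 subunit as Atp6v0a1 and is known from osteoclasts and immune cells, fell at both times. It stood at -0.29 ± 0.08 at 2 h (SD, n = 3; limma adjusted p = 0.00397) and at -0.40 ± 0.06 at 6 h (adjusted p = 0.000907), with rat means of -0.25, -0.38 and -0.24 and of -0.45, -0.41 and -0.34. It was below 0 on all 12 arrays. On the flip arrays alone the 2 h mean, -0.25, missed the threshold.

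Atp6v1a, the catalytic subunit that hydrolyses ATP, fell at 6 h (-0.13 ± 0.02, SD, n = 3; adjusted p = 0.0240) and stood at -0.02 ± 0.04 at 2 h. That call was lost when rat 2, 4 or 6 of the 6 h group was left out, on flip arrays alone and with neighbouring probes subtracted, and its 6 h arrays ran from -0.23 to 0.03. The other 6 subunits passed at neither time. Atp6v1b2, the second ATP-binding subunit, was at -0.07 and -0.08, and Atp6v1f, of the central stalk, at -0.03 and -0.10. The C2 form Atp6v1c2 was at -0.02 and -0.01. The rotor subunit Atp6v1d was at 0.04 and 0.03, the stalk subunit Atp6v1e1 at -0.00 and 0.05, and Atp6v0d1, which joins the ring to the rotor, at 0.03 and 0.07.

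Of these 8 subunits 0 rose and 1 fell at 2 h, and 0 rose and 2 fell at 6 h (limma; 1 and 3 at an unadjusted p under 0.05), beside 9.82% of all genes called lower at 2 h and 10.7% at 6 h, with medians of -0.020 and -0.043 against -0.007 and 0.007 over all genes. Within V0 the proteolipid was above 0 and both a forms below 0 on all 12 arrays, while Atp6v0d1 lay between -0.06 and 0.12. Atp6v0c and Atp6v0a1 were chosen on these ratios, so nothing is read from their contrast.

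**Figure D2:**
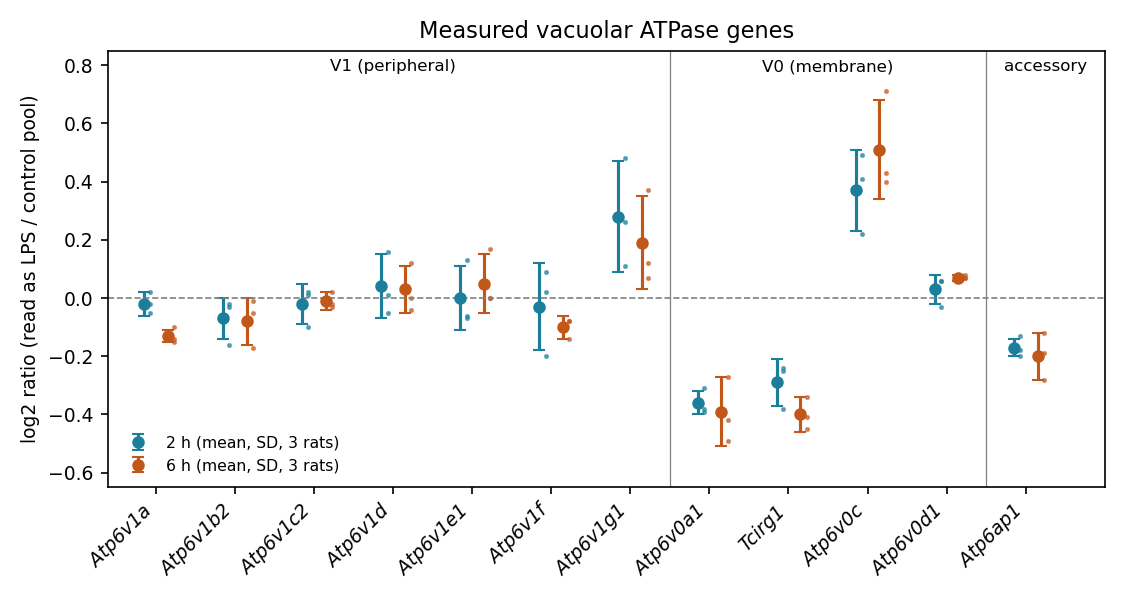
Mean log2 ratio (y axis, read as LPS over control pool) of the 12 measured vacuolar ATPase genes at 2 h (blue) and 6 h (orange), with SD over 3 rats as bars and rat means as small points, grouped by sector. Atp6v0c (0.37 and 0.51) is the highest, Atp6v0a1 (-0.36 and -0.39) and Tcirg1 (-0.29 and -0.40) are the lowest, and 6 subunits have means between -0.10 and 0.07.

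Promoter sequence from RefSeq (GRCr8, a window from 250 bases before the start site to 50 after it) was matched for 4 of the 5 genes; Psap had no entry. Lysosomal genes are known targets of TFEB and its relatives, which bind E-boxes such as CACGTG. The longer letters TCANGTGA, searched on both strands, occur in 3.93% of 33469 windows of this length, and among the 4 genes in that of Atp6v0c. There they lie at bases 4 to 11, with the start site as base 1. The stretch, at chr10:13705821-13705850 on the minus strand, is shown because this is the gene whose ratios were above 0 on every array, with the match in capitals.
Atp6v0c: cgtggcccataTCATGTGAcgcgagcgcgg

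CACGTG itself, which is its own complement, was in 6.42% of all windows and in 0 of these 4. Among 21 pump genes with a window, TCANGTGA was found for 4: besides Atp6v0c these were Atp6v0d1, Atp6v0e1 and Atp6v1a. Of the 3 of them on the array, Atp6v0c was above 0 on all arrays, Atp6v0d1 did not pass, and Atp6v1a fell at 6 h as given above. CACGTG was found for Atp6v0d1 and Atp6v0e1.

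CCAAT, the letters bound by the factor NF-Y, was present on either strand in 37.5% of all windows, in 12 of the 21 pump genes and in Atp6v0a1, Atp6ap1 and Atp6v1g1 of the 4. Relative to the start site it lies at bases -110 to -106 in Atp6ap1 and, on the other strand, at -58 to -54 in Atp6v0a1. These stretches are shown because both genes were below 0 on all 12 arrays, with the match in capitals. That of Atp6ap1 is chrX:157230993-157231242 on the plus strand, and that of Atp6v0a1 chr10:86435891-86436088 on the plus strand.
Atp6ap1: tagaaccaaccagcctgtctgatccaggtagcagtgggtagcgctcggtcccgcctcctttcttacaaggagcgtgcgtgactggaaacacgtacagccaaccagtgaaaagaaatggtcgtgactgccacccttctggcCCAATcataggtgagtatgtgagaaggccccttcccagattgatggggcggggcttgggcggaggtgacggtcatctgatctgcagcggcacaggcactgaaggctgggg
Atp6v0a1: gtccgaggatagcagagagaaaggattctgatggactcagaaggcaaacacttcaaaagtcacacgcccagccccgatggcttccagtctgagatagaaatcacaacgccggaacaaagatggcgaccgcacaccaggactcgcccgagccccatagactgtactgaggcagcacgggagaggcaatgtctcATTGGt

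In Atp6v1g1, above 0 on 10 arrays, the CCAAT match lies at bases 22 to 26. The 4 windows held 57.3% to 66.0% G and C, the highest in Atp6v0c, against a median of 51.7% over all windows. A match is a description of letters in these windows and no evidence of binding.

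Fluor and flip arrays were compared next, because the direction rests on them. For Psap the means over 6 arrays were -1.11 on fluor and -0.90 on flip arrays, for Atp6v0c 0.48 and 0.40, for Atp6v0a1 -0.35 and -0.40, and for Atp6ap1 -0.18 and -0.19. For Atp6v1g1 they were 0.42 and 0.05. Single rats could differ more than these means: in rat 3 at 2 h Psap was at -1.14 on the fluor and -0.37 on the flip array, and in rat 2 at 6 h Atp6v0c was at 0.91 and 0.50. If the flip arrays had to be multiplied by -1, the means at 2 h and 6 h would be -0.15 and -0.05 for Psap, 0.01 and 0.06 for Atp6v0c, -0.03 and 0.08 for Atp6v0a1, and -0.00 and 0.02 for Atp6ap1. Atp6v1g1 would stand at 0.14 and 0.23. The directions given above therefore depend on the flip arrays having been turned before deposit, which is likely but not stated.

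**Figure D3:**
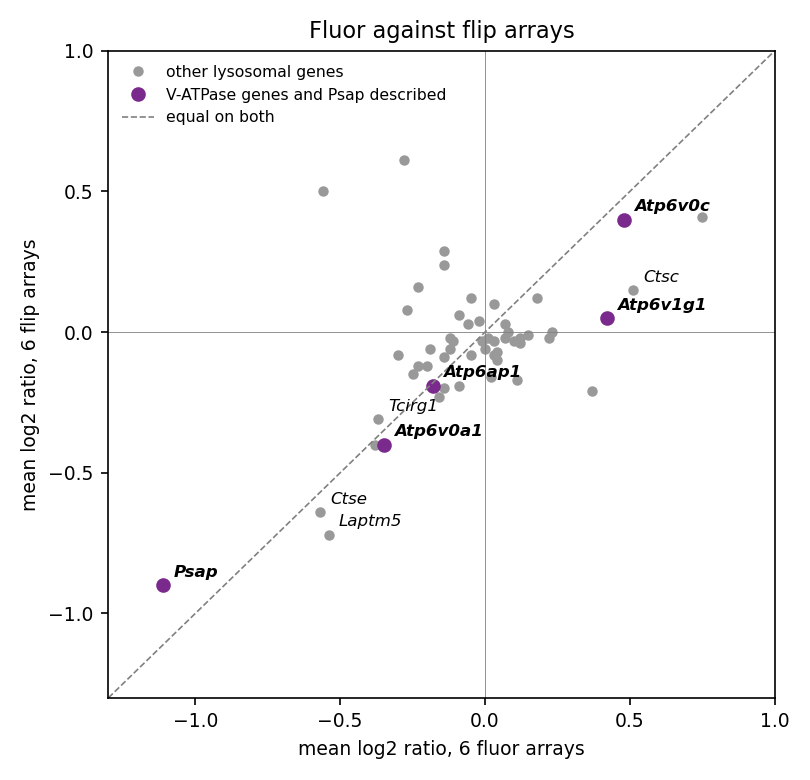
Mean log2 ratio over the 6 fluor arrays (x axis) against that over the 6 flip arrays (y axis) for the 5 genes (purple) and 50 other lysosomal genes (grey), with the line of equal values dashed. Psap lies at -1.11 on fluor and -0.90 on flip arrays, Atp6v0c at 0.48 and 0.40, and Atp6v1g1 below the line at 0.42 and 0.05.

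The genes whose 12 array values came nearest to those of each of the 5 were listed by root mean square difference in log2 ratio. For Psap they were Eva1b (0.301) and the actin-binding thymosin Tmsb10 (0.334), with means of -0.82 and -1.12 and of -1.07 and -1.15 at 2 h and 6 h. For Atp6v0c they were the phosphatase Ptprr (0.139) and the bromodomain gene Brd8 (0.166). For Atp6v0a1 they were the glutathione synthetase Gss (0.0936) and Chchd2l3 (0.101), and for Atp6ap1 the kinase Prkd2 (0.0803) and the mitochondrial insertase Oxa1l (0.0853). Atp6v1g1 lay nearest to the neurofilament gene Nefm (0.0534) and the carrier Slc25a25 (0.0774), which followed it through the fluor and flip arrays with Pearson r of 0.984 and 0.953 over 12 arrays. Atp6v0a1 and Atp6ap1 differed by 0.214 (r = 0.695). Arrays share control pools and orientation, so these figures describe likeness alone.

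Psap was the single measured gene on the list of sphingolipid breakdown. Other lysosomal genes were read from lists of hydrolases, membrane proteins and transporters, and sorting factors, whether or not they act only in lysosomes. With the pump subunits other than Atp6v0c, Atp6v1g1, Atp6ap1 and Atp6v0a1 they made 50 genes, of which 2 rose and 10 fell at 2 h and 3 rose and 11 fell at 6 h. That is to be read against the 9.34% and 9.82% of all genes called higher and lower at 2 h and the 8.30% and 10.7% at 6 h. The list medians were -0.026 at 2 h and -0.030 at 6 h, against -0.007 and 0.007 over all genes. Between the times 0 of the 50 differed (limma; 9 at an unadjusted p under 0.05).

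Of 18 hydrolases, Ctsc rose and Ctsa, Ctse and Ppt1 fell at 2 h. Ctsc, which encodes the protease that activates granule serine proteases, rose by 0.48 ± 0.08 (SD, n = 3; adjusted p = 0.000491) and at 6 h by 0.17 ± 0.01 (adjusted p = 0.0177), though its 2 probes gave 0.72 and 0.25 at 2 h. The 6 h call was lost without rat 2, 4 or 6 and on flip arrays alone, where the 6 h mean was 0.02. Ctse, an aspartic protease on the hydrolase list, was the lowest of them at -0.49 ± 0.09 (adjusted p = 0.000960) and -0.72 ± 0.09 (adjusted p = 0.000150). It was below 0 on all 12 arrays, from -0.60 to -0.33 at 2 h and from -0.91 to -0.62 at 6 h. The times did not overlap, as for 21.7% of all genes, and 6 h minus 2 h (-0.23, limma adjusted p = 0.175) did not pass.

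Ctsa, whose product protects sialidase and galactosidase in the lysosome, was at -0.39 ± 0.20 and -0.39 ± 0.10 (SD, n = 3), and Ppt1, which removes palmitate from proteins, at -0.16 ± 0.05 and -0.22 ± 0.03. At 6 h Ctsl (0.19 ± 0.03) rose and the cathepsin gene Ctsh (-0.22 ± 0.08) and the carboxypeptidase gene Prcp (-0.15 ± 0.07) fell. Ctsl was above 0 on all 3 flip arrays of 6 h and stood at -0.05 on its fluor arrays, where its call was lost. In leave-one-out fits Ctsa lost its call at 2 h without rat 1 or 3 and at 6 h without rat 2 or 6. Ppt1 lost it at 2 h without rat 1 or 2, Ctsh at 6 h without rat 2, and Prcp at 6 h without rat 2, 4 or 6 or the 2 h rat 1. On fluor arrays alone the calls of Ctsa at both times and of Prcp were lost. On flip arrays alone those of Ppt1 at both times and of Ctsh were lost. Ppt1 was lower on the fluor than on the flip array in 6 of 6 rats, with flip means of -0.05 at 2 h and -0.11 at 6 h.

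Of 12 membrane proteins and transporters, Laptm5, a lysosomal protein of blood cells, was the lowest, at -0.47 ± 0.07 at 2 h (SD, n = 3; adjusted p = 0.00189) and -0.79 ± 0.13 at 6 h (adjusted p = 0.000196). It was below 0 on all 12 arrays. The rats of the 2 times did not overlap, as for 21.7% of all genes, and 6 h minus 2 h (-0.32, limma adjusted p = 0.111) did not pass. Lamp1 and Lamp2 encode the main glycoproteins of the lysosomal membrane. Lamp1 fell at 6 h (-0.31 ± 0.05, adjusted p = 0.00230) and stood at -0.08 ± 0.07 at 2 h. Lamp2 fell at 2 h (-0.26 ± 0.11, adjusted p = 0.0210) and stood at -0.13 ± 0.12 at 6 h. For neither did 6 h minus 2 h pass (limma adjusted p = 0.111 for Lamp1 and 0.494 for Lamp2). Cd164 fell at 6 h (-0.18 ± 0.06), with 2 probes at -0.06 and -0.30, and Litaf, an endosomal protein gene first described as an LPS-induced factor, rose at 6 h (0.19 ± 0.05). Lamp2 was not called without rat 2 or 3 of the 2 h group, Cd164 without rat 2 or 6 and Litaf without rat 2, 4 or 6 of the 6 h group. Cd164 was also not called on fluor arrays alone, where its 6 h mean was -0.05.

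Of 12 sorting genes, Clta, the clathrin light chain, fell at both times (-0.17 ± 0.05 and -0.18 ± 0.03, SD, n = 3). Vps35 of the retromer (-0.22 ± 0.04), the adaptor subunit Ap3m1 (-0.14 ± 0.07) and Grn (-0.18 ± 0.07) fell at 2 h, and the adaptor subunit Ap1s1 (0.13 ± 0.09, adjusted p = 0.0492) rose. Grn encodes progranulin, a partner of prosaposin in transport to the lysosome; it stood at -0.06 ± 0.08 at 6 h. Calls at 2 h were lost without rat 2 for Vps35, rat 1, 2 or 3 for Grn, rat 3 for Clta, and any of several rats of either time for Ap3m1 and Ap1s1, and Clta lost that at 6 h without rat 4. On flip arrays alone the 2 h calls of Clta, Grn, Ap3m1 and Ap1s1 were lost.

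**Figure D4:**
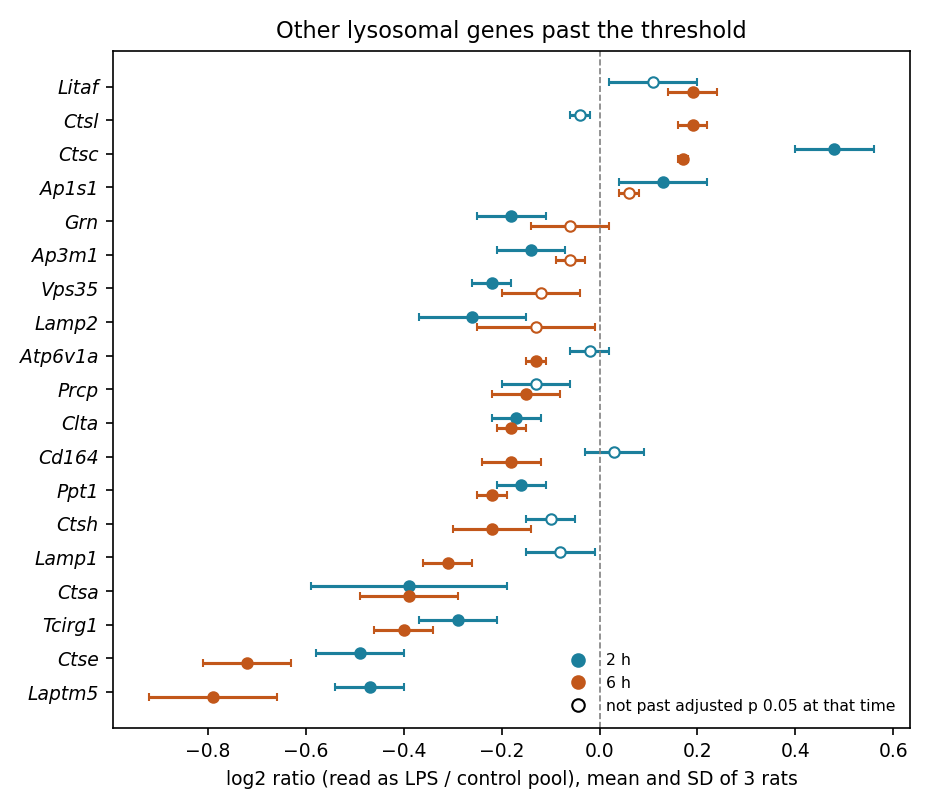
Mean log2 ratio (x axis, read as LPS over control pool) with SD over 3 rats for the 19 lysosomal genes, other than the 5, that passed limma's threshold at 2 h (blue) or 6 h (orange); open points did not pass at that time. Laptm5 (-0.47 and -0.79) and Ctse (-0.49 and -0.72) are the lowest and Ctsc (0.48 and 0.17) is the highest at 2 h.

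The mitochondrial ATP synthase is the structural relative of the vacuolar pump that makes ATP. Of its 10 measured genes 2 fell at 2 h and 3 at 6 h, with medians of -0.094 and -0.058, where 9.82% and 10.7% of all genes were called lower. The falls were those of the catalytic subunit Atp5f1b (-0.42 ± 0.08 and -0.71 ± 0.10, SD, n = 3) and the stalk subunit Atp5pf (-0.46 ± 0.05 and -0.59 ± 0.12) at both times and of Atp5f1c (-0.16 ± 0.04) at 6 h. Atp5f1c was not called without rat 2 or 6 or on fluor arrays alone. Whether the 2 pumps differ was not tested.

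Markers of blood cells moved in the same rats. Over all genes 9.34% were called higher and 9.82% lower at 2 h, and 8.30% and 10.7% at 6 h. Of 5 neutrophil genes S100a9 (2.98 and 2.70), Lcn2 (0.69 and 0.61) and Il1r2 (0.62 and 0.73) rose at both times. Lcn2 and Il1r2 are also among the textbook LPS-induced genes named above, so their ratios do not give neutrophil numbers. Chi3l1 rose at 2 h (0.57) and stood at -0.37 at 6 h, and S100a8 stood at -0.08 and -0.05. The list means over the rats, to which S100a9 gave the largest share, were 0.83 to 1.10 at 2 h and 0.55 to 0.88 at 6 h. The neutrophil genes did not move together, so neither S100a9 nor the list means give neutrophil numbers. Of 3 monocyte and macrophage genes, C1qb fell at both times and C1qc at 6 h, while Lyz2 stood at -0.07 and -0.01, and list means ran from -0.29 to -0.15 and from -0.29 to -0.11. Of 4 T cell genes 2 fell at each time (list means -0.35 to -0.26 and -0.40 to -0.14), and of 2 B cell genes 2 fell at 2 h and 1 at 6 h (-0.33 to -0.23 and -0.43 to -0.38). Of 4 NK and cytotoxic genes 2 rose at each time: Gzmc (1.17 and 1.87) at both, Il2rb at 2 h and Prf1 at 6 h. Il2rb stood at 0.42 and -0.03, Prf1 at 0.01 and 0.27, and Gzmk at -0.14 and -0.07. The list means, to which Gzmc gave the largest share, were 0.29 to 0.43 and 0.42 to 0.58. Of 7 erythroid genes 4 rose and 1 fell at 2 h and 2 fell at 6 h (0.18 to 0.42 and -0.01 to 0.28), and of 2 platelet genes 1 rose at 2 h and 0 at 6 h (0.07 to 0.38 and -0.42 to -0.03; 1 at an unadjusted p under 0.05 in limma at 6 h). The part of shifts in cell makeup in the ratios of Psap and the pump genes was not tested.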

How the data were processed

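Total RNA of 6 rats was compared with control pools on 12 2-colour arrays. The authors deposited a table of 7200 probes by 12 arrays, taken from the values as log2 ratios, since the ratios they stand for fall on steps of 0.0001 (100% of ratios under 5, within 0.05 of a step). The sources used here do not give the dyes, scanner, background correction or normalization. Medians per array ran from -0.020 to 0.0083. Without intensities, spots near background could not be told from the rest. On each array 242 to 298 probes shared a repeated value; none of the 5 genes did. The 3 rats and the 1 control pool of each time limit the precision.

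Probe names came from GEO's annotation of the platform, with symbols updated by gene identifier in the GRCr8 table: 4190 had 1 symbol, 46 several and 2964 none. Probes of a gene were averaged (236 of 3939 genes had several), then the arrays of a rat. Rat means of all 6 rats were fitted in 1 model of group means with limma 3.58.1 (R 4.3.3; lmFit, eBayes), testing each time against 0 and their difference, with Benjamini-Hochberg adjusted p under 0.05 over all genes; the fit was tested on simulated data. Nothing states that rats were handled separately, so p-values measure the spread between these samples. Genes named are the 5, all measured pump and sphingolipid genes, the called members of the other lysosomal and ATP synthase lists, and the 2 nearest genes to each of the 5. The members and lists were chosen with earlier results of these data known. Alternatives turned, dropped or renormalized arrays, left out rats, masked repeated values, subtracted neighbouring probes, added a dye term, or fitted probes or each time alone.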

Additional observations from a re-analysis of the deposited data

Results flagged for a closer look

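Among the 6 arrays of a time, 3 values stood apart from the rest by Dixon's criterion for 6 values, which chance meets in about 1 of 20 groups. The fluor array of rat 2 at 6 h gave 0.91 for Atp6v0c, the others 0.37 to 0.50. The flip array of rat 6 at 6 h gave -0.91 for Ctse, the others -0.73 to -0.62. The flip array of rat 4 at 6 h gave 0.07 for Ctsh, the others -0.36 to -0.21. The search covered Psap, all measured pump genes and the called members of the other lysosomal and ATP synthase lists, at both times. Over so many groups some values meet the criterion by chance, so nothing further is read from these 3. The 6 arrays of a time hold 3 rats, so they are not independent.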

How the results depend on the processing

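With the flip arrays turned (multiplied by -1), 24 of the 31 calls of lysosomal and ATP synthase genes other than the 5 were lost, and Ctsl (-0.24), Cd164 (0.13) and Atp5f1b (0.25) at 6 h were called with the other sign. The means at 2 h and 6 h became 0.01 and 0.06 for Atp6v0c, -0.00 and 0.02 for Atp6ap1, -0.03 and 0.08 for Atp6v0a1 and -0.15 and -0.05 for Psap, and 6 h minus 2 h became 0.09 for Atp6v1g1, 0.02 for Atp6ap1, 0.11 for Atp6v0a1 and 0.10 for Psap. The 755 genes called at 2 h became 559, the 749 at 6 h became 1461, and the 20 called between the times became 0 (limma; 484 at an unadjusted p under 0.05). The lysosomal genes higher and lower became 5 and 5 at 2 h and 9 and 7 at 6 h. Fluor arrays alone called 1142 genes at 2 h (755 as reported), 1202 at 6 h and 4 between the times, with 7 lysosomal genes higher at 2 h; Atp6v1g1 stood at 0.41 at 6 h and Atp6v0a1 differed by 0.07. Flip arrays alone called 336 at 2 h and 5 between the times, with 1 lysosomal gene higher and 5 lower at 2 h, and put Atp6v1g1 at -0.04 at 6 h. Scaling the arrays alike called 5 genes higher and 9 lower between the times and 5 lysosomal genes higher at 2 h and gave -0.41 for Atp6v0a1 at 2 h and a difference of 0.01. Quantile normalization gave -0.41 for Atp6v0a1 at 2 h and -1.55 for Psap at 6 h, and called 8 genes between the times, 3 higher and 5 lower against 13 and 7. Subtracting neighbouring probes gave -0.08 for Atp6ap1 at 2 h and 10 genes between the times. Fitting the rats of 1 time alone called 500 genes at 2 h and 1 lysosomal gene higher. A dye term with the rat as a random block called 131 genes between the times and 6 lysosomal genes higher at 2 h. Leaving out 1 rat gave 323 to 668 genes at 2 h (fewest without the 2 h rat 2), 306 to 927 at 6 h and 2 to 31 between the times (fewest without the 6 h rat 2). The lysosomal genes then numbered 1 to 3 higher and 5 to 9 lower at 2 h, and 1 to 4 and 6 to 11 at 6 h. In the same fits 6 h minus 2 h ran from -0.19 to 0.00 for Atp6v1g1, from -0.06 to 0.01 for Atp6ap1 and from -0.10 to 0.02 for Atp6v0a1, changing sign without the 2 h rat 2 for the first and without the 6 h rat 2 for the others. Of 120 values of the 5 genes at 2 h or 6 h under alternatives, 106 stayed within 1 SD. Many of these could not have done otherwise. Each of the 5 has 1 probe and no repeated value, so fitting probes or masking repeated values leaves it unchanged. Leaving out 1 of 3 rats cannot move their mean by 1 SD. The count is therefore no measure of robustness. The causes of the shifts under alternatives were not tested. No paired analysis was possible because the times share 1 rat number, 2. Signal over background is unknown, so compressed ratios of weak spots cannot be recognised.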

Other observations

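Cathepsins B and S were looked at after their values were seen. Ctsb, a cysteine protease gene, averaged 0.74 ± 0.56 at 2 h (SD, n = 3; limma adjusted p = 0.0505) and 0.42 ± 0.38 at 6 h (adjusted p = 0.193). Its rat means were 0.10, 1.13 and 1.00 at 2 h and 0.27, 0.85 and 0.14 at 6 h, so the rats of a time fell far apart while 11 of 12 arrays lay above 0. Ctss held the repeated value on 11 of 12 arrays, which left 1 ratio of its own, 2.59 on the flip array of rat 4 at 6 h.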
